A study of Mus musculus with 30 samples.

Results

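Blebbistatin lowered the chromatin signal at 6332 sites in primary mouse tail-tendon fibroblasts that had also received doxycycline. Most of these sites were outside the authors' list of sites changed by doxycycline alone. Of the 6346 sites that the authors listed for doxycycline plus blebbistatin against doxycycline alone, 4330 had no base in common with any of the 7613 sites listed for doxycycline alone against no drug, and the remaining 2016 overlapped one. The 4330 sites were chosen by this rule, from the authors' listed sites, so their folds, FDRs and levels are given as a description and carry no test. The authors' list covered 8.75% of about 72539 sites tested, 8.73% as lower, and the doxycycline list 9.36% of about 81359. By FDR alone about 65.9% and 39.7% of these sites would pass, but both lists were also cut at an absolute log2 fold of 1. A site outside the doxycycline list may therefore have changed with doxycycline by less than that.

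The fibroblasts came from tail tendon and were labelled primary and wildtype, and all groups were treated in medium with 0.1% serum. The 4 groups of 3 libraries each crossed doxycycline at 10 ng/mL with blebbistatin at 10 µM, giving neither drug, blebbistatin, doxycycline, and doxycycline plus blebbistatin. What doxycycline induced in these wildtype cells was not given in the sources used here, and the labels name no assay for these libraries beyond genomic DNA with ATAC as the protocol for such libraries. Separate ATAC and poly(A) RNA experiments without doxycycline had 3 libraries each of DMSO, blebbistatin at 10 µM and Y27632 at 30 µM. The labels do not say whether the libraries of a group came from separate cultures or animals, so p-values measure the spread between these libraries, which may be technical.

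Blebbistatin blocks the motor of non-muscle myosin II and so lowers the pull that a fibroblast exerts on its surroundings. In spread, contractile fibroblasts the co-activators Yap and Taz enter the nucleus and bind DNA through TEAD factors, often at enhancers far from gene starts and beside AP-1. ATAC marks open chromatin through the cuts that a transposase makes, so its signal follows how exposed the DNA is.

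Sequences are shown first for sites that overlap an ATAC site in which the authors' annotation located a TEAD word. They show the letters found where the experiments overlap. In the deposited ATAC blebbistatin list the authors gave the positions of a motif whose best match they name as TEAD, and 88 of the 126 ATAC sites (69.8%) that overlap a site outside the doxycycline list held it. The share was 60.6% at ATAC sites that overlap the remaining doxycycline plus blebbistatin sites, 61.1% at ATAC sites that overlap neither, and 62.2% over all 970. Of the 125 matches in ATAC sites that overlap sites outside the doxycycline list, 73 (58.4%) held the letters GGAATG. These letters are shown in capitals below in the strand of the motif. The 6 matches printed are from ATAC sites at 4 sites found in every blebbistatin or Y27632 list and at the sites next to Adamts5 and Klf4. Here and below, a site next to a gene is one that the authors annotated to that gene, at any distance. All 6 hold GGAATG, because sites were chosen for printing by carrying such letters. The Erbb4 site, also found in every list, had a match with GGAATG that is not printed. Other sites found in every list, annotated to Adamts6, Gm15694, Tnfaip3, Sntn, Ube2u and 1700125H03Rik, had only matches without it. Coordinates, in mm10, are those of the sites outside the doxycycline list, and whether a word lies within them was not checked.
Alkal1 (chr1:6312027-6312277, intergenic): tGGAATGtgg
Cavin2 (chr1:51143659-51144055, intron): tGGAATGttc
Impad1 (chr4:5160969-5161284, intergenic): aGGAATGttt
Antxr1 (chr6:87285302-87285748, intron): tGGAATGtga
Adamts5 (chr16:86180123-86180413, intergenic): aGGAATGttt
Klf4 (chr4:55578943-55579196, intergenic): tGGAATGctg

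Few sites lay at gene starts, and those that did are shown because their letters could be read from the RefSeq promoter table of the same build, GRCm38.p6. In all, 42 sites overlapped 44 of its 32851 windows, each of 300 bases from 250 before to 50 after a gene's start. The AP-1 word TGANTCA, searched on both strands like all words here, was in 14 of the 44 windows (31.8%) and in 7.81% of all windows. GGAATG was in 22.7% of the 44 windows against 14.7% of all, and the RUNX word TGTGGT in 31.8% against 16.8%. The TWIST E-box word CAGATG was in 27.3% against 17.2%, and the FOX word TGTTTAC in 11.4% against 3.65%. The GC-rich SP/KLF word GGGCGGG went the other way, at 9.09% against 25.6%, and the ETS word CCGGAAG was in 0 of the 44 windows against 8.86% of all. None of these words contains another, and a match describes the letters and not a bound factor. The part of each site that lies in the window upstream of the start is printed for the promoter of Mmp10, a stromelysin that cleaves matrix, with AP-1 in capitals, and for that of Havcr2, an immune checkpoint receptor, with AP-1 and then RUNX in capitals.
Mmp10 (chr9:7502156-7502341, plus strand): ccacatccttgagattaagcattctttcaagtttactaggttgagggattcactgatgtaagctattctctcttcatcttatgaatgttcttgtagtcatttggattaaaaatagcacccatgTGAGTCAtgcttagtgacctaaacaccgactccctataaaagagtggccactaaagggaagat
Havcr2 (chr11:46454681-46454901, plus strand): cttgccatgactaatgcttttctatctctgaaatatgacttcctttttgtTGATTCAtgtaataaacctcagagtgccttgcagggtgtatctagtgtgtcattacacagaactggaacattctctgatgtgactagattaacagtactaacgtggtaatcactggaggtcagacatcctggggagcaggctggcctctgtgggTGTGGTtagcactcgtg

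The 4330 sites were distal, narrow and shallow in their change. All values per site are the authors', deposited as log2 means over the 3 libraries of a group, with no value per library, so no SD can be given and the depth is unknown. The median level was 6.06 with doxycycline and 4.91 with doxycycline plus blebbistatin, and the median log2 fold was -1.11, a 2.16-fold reduction. The interquartile range of the folds was -1.23 to -1.05, and 4317 sites were lower and 13 higher. The folds crowd at the authors' threshold, with 2999 sites (69.3%) above -1.2 but below 0 and 150 (3.46%) at -1.5 or lower. Among the 2016 overlapping sites the median fold was -1.17, with 56.5% in that range and 9.47% at -1.5 or lower. Their median levels were 6.16 and 4.94, so the levels of both sets were alike and the overlapping set reached further into large decreases. The 3 libraries with doxycycline alone enter both the doxycycline list and these folds, so the difference between the sets is not free of the rule.

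**Figure D1:**
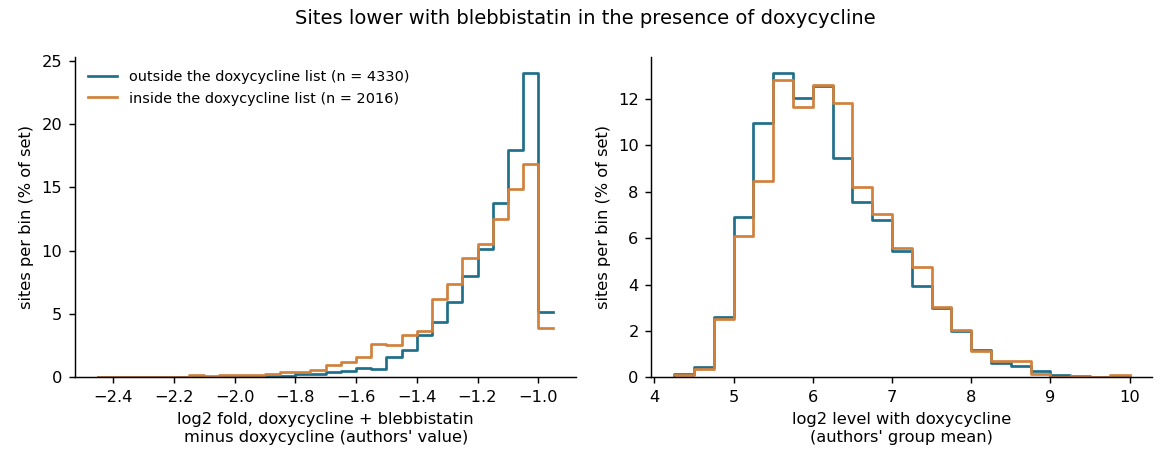
Share of sites per bin of the log2 fold (left, bins of 0.05) and of the log2 level with doxycycline (right, bins of 0.25) for the sites lower with blebbistatin outside (blue, of 4330) and inside (orange, of 2016) the doxycycline list. The blue fold curve is the higher of the 2 from the threshold down to -1.15 and the lower one below that, while the level curves lie close together. The libraries with doxycycline alone enter both the doxycycline list and the fold.

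Stronger sites were wider and changed slightly less. Over 4 groups of sites of nearly equal size by level, the median fold went from -1.14 in the lowest to -1.09 in the highest, and the median width from 142 to 330 bp. The median FDR of the authors went from 0.00199 to 1.11e-07 over the same groups, and 97.7% of the sites had an FDR of at most 0.01. The level counts reads over a whole site and not per base, so a wider site can collect more reads and level and width are not independent. The list was cut on fold and FDR, so the trend of the fold with level is not free of that cut. Just inside the fold threshold lay sites next to Asb5 (chr8:54548241-54548731), Zfp648 (chr1:154065355-154065789) and Tgfbr1 (chr4:47407198-47407575), each at -1. The overlap rule left few borderline cases. The nearest misses lay 37 bp (Syn2), 46 bp (Apbb1ip) and 49 bp (Rassf9) from a doxycycline site, and the smallest overlaps that kept a site out covered 75, 77 and 80 bp, the whole of those narrow sites. Only 76 sites (1.76%) lay within 500 bp of a doxycycline site, 506 (11.7%) within 10 kb and 2337 (54.0%) within 100 kb.

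By the authors' annotation, 2202 sites (50.9%) were intergenic, 1950 (45.0%) intronic and 78 (1.80%) at promoters. The 2016 overlapping sites had nearly the same makeup, with 52.3%, 43.3% and 1.74%. The doxycycline list differed from both, since 1422 of its sites (18.7%) were at promoters. The remaining classes were small, with 38 sites at transcription ends, 25 in 3′ UTRs, 18 in non-coding genes, 17 in exons and 2 in 5′ UTRs. The median distance to the nearest start was 44.4 kb, and 102 sites (2.36%) lay within 1 kb, 594 (13.7%) from 1 to 10 kb, 2396 (55.3%) from 10 to 100 kb and 1238 (28.6%) farther. The annotation put 964 sites (22.3%) in repeats, against 25.3% of the overlapping sites. Long terminal repeat elements held 7.71% against 9.38%, LINE elements 6.03% against 8.43%, and SINE elements 4.83% against 4.41%. The share of listed sites that fell outside the doxycycline list ran from 61.5% on chromosome X to 75.0% on chromosome 18.

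The largest decreases were at weak to moderate sites. An intronic site of Irak1bp1 (chr9:82841854-82842058) went from 5.68 to 3.41, a log2 fold of -2.26, which is a 4.79-fold reduction. An intronic site of Cntnap5a (chr1:116284135-116284265) had a fold of -2.11, and intergenic sites next to Celf4 (chr18:26205291-26205400) and Mir6344 (chr1:81903825-81903961) had folds of -2.13 and -1.99. Outside introns and intergenic sequence the folds were -1.79 in a 3′ UTR site annotated to Kcnv2, -1.74 at the promoter of Gm29688, -1.63 at a transcription end site annotated to Copb1 and -1.39 at the promoter of Havcr2. The 5 strongest sites, next to S100a11, B230303A05Rik, Dmkn, 4933433G15Rik and Dtwd1, had levels of 9.07 to 9.40 with doxycycline and folds of -1.14 to -1.04. All 5 were 576 to 631 bp wide, so the strongest sites, by a level that is not per base, were also among the widest.

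The 13 sites that were higher had low levels with doxycycline. The site annotated to Gpat3 (chr5:101210728-101210956), 364613 bp from its start, went from -0.25 to 2.66, a log2 fold of 2.90 with an authors' FDR of 0.0204. Those next to Fstl4 and Crybg3 had folds of 2.28 and 1.86 from levels of 0.77 and 2.05. The site next to Trabd2b (chr4:114378591-114378730) started from 4.06, reached 5.48 and had an FDR of 0.000108. The other 9, annotated to Nkx6-2, Atl2, Slc10a7, Mir6378, 4930448K20Rik, Eci2, Zfp808, Mir6372 and Dcpp2, had folds of 1.08 to 1.56 and FDRs of 0.0118 to 0.05.

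A small part of these sites was also in the list for the same drug without doxycycline. Of the 4330, 280 (6.47%) overlapped the list of blebbistatin against neither drug, which holds 1231 of about 68975 sites (1.78%, with 1.77% lower), and they covered 23.2% of that list. Among the 2016 sites that overlap the doxycycline list, 119 (5.90%) did so, and these covered 9.99% of it. All 280 were lower in both lists. By FDR alone about 3.14% of the sites tested without doxycycline would pass, against 65.9% with it. Absence from the list without doxycycline therefore does not show that a site was unchanged there. The group with neither drug is the reference of that list and of the doxycycline list used in the rule, so the overlap is not free of the rule. Over 285 pairs of sites, the median fold was -1.16 with doxycycline and -1.21 without it. The difference between the folds averaged 0.0758 with an SD of 0.230 over the pairs, and the decrease was larger with doxycycline in 105 pairs (36.8%). Median levels in the pairs were 6.74 and 5.53 with doxycycline, without and with blebbistatin, and 6.13 and 4.93 in the list without doxycycline, which may have been scaled separately.

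**Figure D2:**
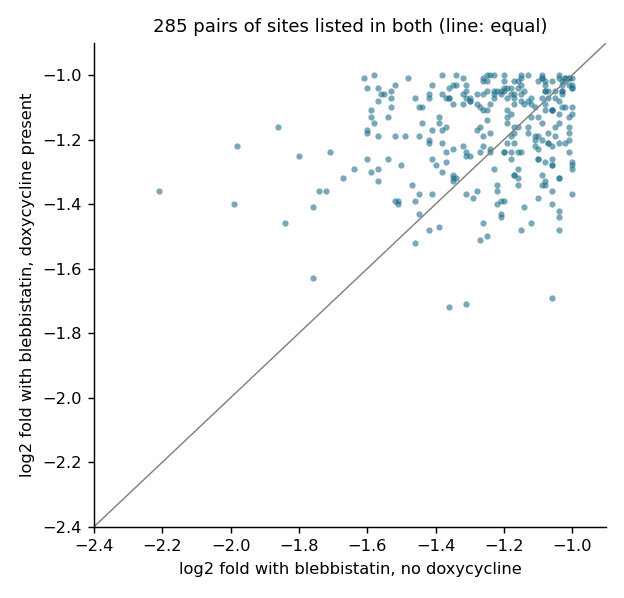
Authors' log2 fold with blebbistatin in the presence of doxycycline (vertical axis) against that without doxycycline (horizontal axis) for 285 pairs of overlapping sites, 1 point a pair. The grey line marks equal folds, 105 points lie below it, and every point is at -1 or lower on both axes because both lists were cut there.

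The next experiment shared no library with the rule. The ATAC blebbistatin list holds 970 of about 62846 sites (1.54%, with 1.52% lower), and 124 of the 4330 sites (2.86%) overlapped it, against 102 of 2016 overlapping sites (5.06%). They covered 13.0% and 10.7% of that list. For Y27632, whose list holds 207 of about 61804 sites (0.335%, with 0.285% lower), the counts were 23 (0.531%) and 33 (1.64%), or 11.1% and 15.9% of the list. All these sites were lower in both lists. The ATAC folds were larger, with a median of -1.60 against -1.16 over 126 pairs with blebbistatin, and -1.34 against -1.16 over 23 pairs with Y27632. The ATAC blebbistatin list holds no fold nearer 0 than 1.24 and the Y27632 list none nearer than 1.11, so the lists were not cut alike. The 2 ATAC lists share their DMSO libraries.

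Most sites were in no other list, 3993 of 4330 (92.2%), and 261 were in 1, 62 in 2 and 14 (0.323%) in all 3. Sites in more lists were stronger and wider, with median levels of 6.01, 6.66, 6.68 and 7.08 and median widths of 208, 262, 273 and 344.5 bp. A wider site has more bases that can overlap another list, and its level is not per base, so these trends are not free of width. In the 14 sites found in every list the folds ran from -1.47 to -1 with doxycycline, from -1.99 to -1.16 without it, from -2.45 to -1.52 in ATAC with blebbistatin and from -1.68 to -1.11 in ATAC with Y27632. The Cavin2 site, near the gene of a membrane-curving caveolar protein, had folds of -1.40, -1.99, -2.45 and -1.68 in that order. The Alkal1 site had -1.47, -1.39, -1.98 and -1.30, and the Antxr1 site, in the gene of a collagen-binding receptor, -1.15, -1.58, -1.71 and -1.27. The remaining 11 were annotated to Impad1, Adamts6, Gm9833, Gm15694, Tcf21, 1700125H03Rik, Ube2u, Tnfaip3, Sntn, 3110009F21Rik and Erbb4.

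Most genes next to the sites had 1 site. The authors annotated 7 sites to no gene and the others to 3048 genes, of which 2221 had 1 site, 549 had 2, 178 had 3, 62 had 4 and 38 had 5 or more. Another site outside the doxycycline list lay within 10 kb of 581 sites (13.4%), and 5 such stretches held 4 sites each, next to Alkal1 and Rb1cc1, Moxd1, Mir21a, Adamts5 and Efnb2. The genes with most sites were Mir6344 with 13, Adamts5 with 11, then 1700019E08Rik, Flrt2 and Efnb2 with 7, and 1700056E22Rik, Adamts6, Lrrc40, A730020E08Rik and Efna5 with 6. Further genes had 6 sites, and among equal counts the largest median decreases were taken.

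Adamts5, a secreted protease that cleaves aggrecan and versican, had its 11 sites over 333 kb upstream of its start, from chr16:85910991 to chr16:86243708. The nearest lay 9971 bp from the start, with levels of 5.96 and 4.57, and the farthest 342520 bp away. Folds ran from -1.72 to -1.01. The largest was at chr16:86180123-86180413, where the level went from 5.97 to 4.25, the TEAD word aGGAATGttt lies in the overlapping ATAC site, and the folds were -1.36 without doxycycline and -1.39 in ATAC with blebbistatin. Of the 11 sites, 3 were in the list without doxycycline and 2 in the ATAC blebbistatin list, and 2 further sites annotated to Adamts5 overlapped the doxycycline list. Adamts5 RNA was 34852, 36966 and 34422 normalised counts with DMSO and 10239, 10108 and 10397 with blebbistatin. The groups lay far apart, and the log2 change was -1.79 (SE 0.0332, limma adjusted p 2.61e-12). With Y27632 it was -0.56, with a limma adjusted p of 6.20e-07.

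**Figure D3:**
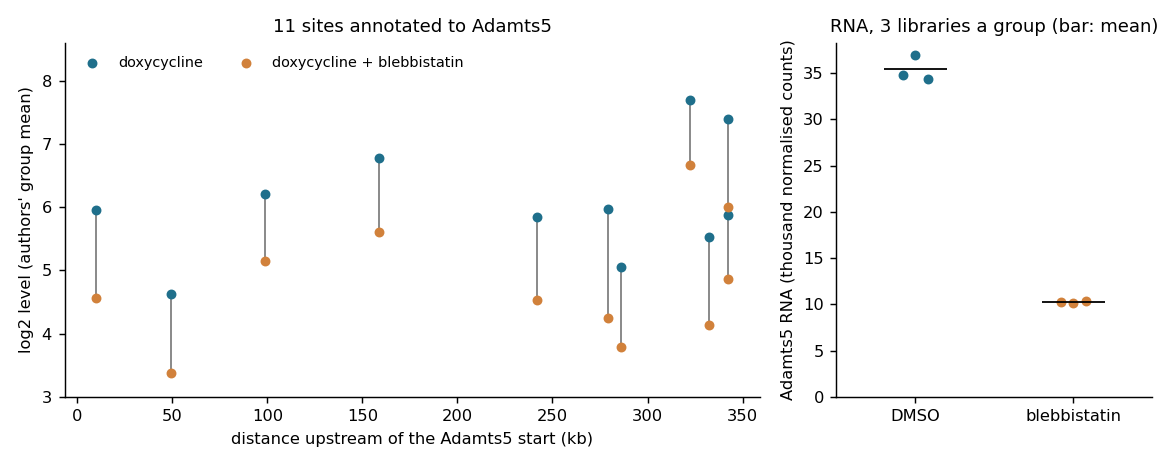
Left, the authors' log2 level with doxycycline (blue) and with doxycycline plus blebbistatin (orange) at the 11 Adamts5 sites, by distance upstream of the gene's start in kb. Right, Adamts5 RNA in normalised counts divided by 1000, 1 point a library and a bar at the mean of 3, with DMSO at 34422 to 36966 and blebbistatin at 10108 to 10397 before division.

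Genes with many sites did not move alike in RNA. Fold changes of RNA are on the scale of log2(normalised count + 1), which understates changes of low genes, and a gene was called at a limma adjusted p under 0.05 over all genes tested. Efnb2, a membrane-bound ephrin ligand, was at 1402, 1525 and 1453 with DMSO and at 703, 685 and 715 with blebbistatin, a change of -1.06 with an adjusted p of 2.51e-09. With Y27632 Efnb2 was called the other way, at 0.30 with an adjusted p of 0.000360. Efna5, an ephrin anchored by a lipid, fell by 0.54 with blebbistatin. Flrt2, an adhesion receptor with 7 sites at folds of -1.26 to -1, rose by 0.18 with an adjusted p of 0.00188. Adamts6, whose 6 sites fell by up to 1.43, changed by -0.16, an adjusted p of 0.0303 that rose to between 0.0529 and 0.100 without DMSO replicate 2 or 3 or without blebbistatin replicate 1 or 2. A730020E08Rik, a non-coding gene, changed by -0.80 (adjusted p 0.0139), and by -0.68 (adjusted p 0.0616) without DMSO replicate 1. Lrrc40 was not called at 0.13 (adjusted p 0.138), and was called at 0.19 (adjusted p 0.0316) without blebbistatin replicate 2.

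RNA was then counted over all genes that the authors annotated to the sites, a measure that the rule did not use and that came from cells without doxycycline. With blebbistatin 748 of 2053 tested genes (36.4%) fell and 565 (27.5%) rose. Over all 14882 genes tested, 53% were called, 26.9% fell and 26.1% rose, so the gap to all genes was wider for genes that fell. Of the called genes, 57.0% next to these sites and 50.8% of all were lower. With Y27632 536 of 2050 (26.1%) fell and 450 (22.0%) rose, beside 17.8% and 18.1% of all 14833 genes, of which 35.9% were called. Changes of at least 1 on the log2 scale were called in 116 genes lower (5.65%) and 87 higher (4.24%) with blebbistatin, beside 2.94% and 3.64% of all genes. With Y27632 these were 24 (1.17%) and 30 (1.46%), beside 0.937% and 1.14%. Both comparisons use the same DMSO libraries. Genes are not replicates, so no test sets these shares apart, and genes linked only to sites that overlap the doxycycline list were at 38.0% lower and 23.6% higher with blebbistatin.

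The share that fell was larger for genes with more sites. With blebbistatin it was 33.7% of 1469 genes with 1 site, 41.7% of 374 with 2, 45.4% of 183 with 3 or 4 and 51.9% of 27 with 5 or more. The share that rose was 28.1%, 27.3%, 24.0% and 22.2%, and the lower part of the called genes was 54.5%, 60.5%, 65.4% and 70.0%. With Y27632 the share that fell was 23.8%, 29.8%, 35.4% and 42.9%, and the share that rose 22.1%, 20.4%, 22.7% and 28.6%. The share that fell differed less by distance, with 34.2% lower where the nearest site lay within 10 kb, 36.6% from 10 to 100 kb and 39.1% farther. Of 56 genes with a promoter site, 16 (28.6%) fell and 17 (30.4%) rose.

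**Figure D4:**
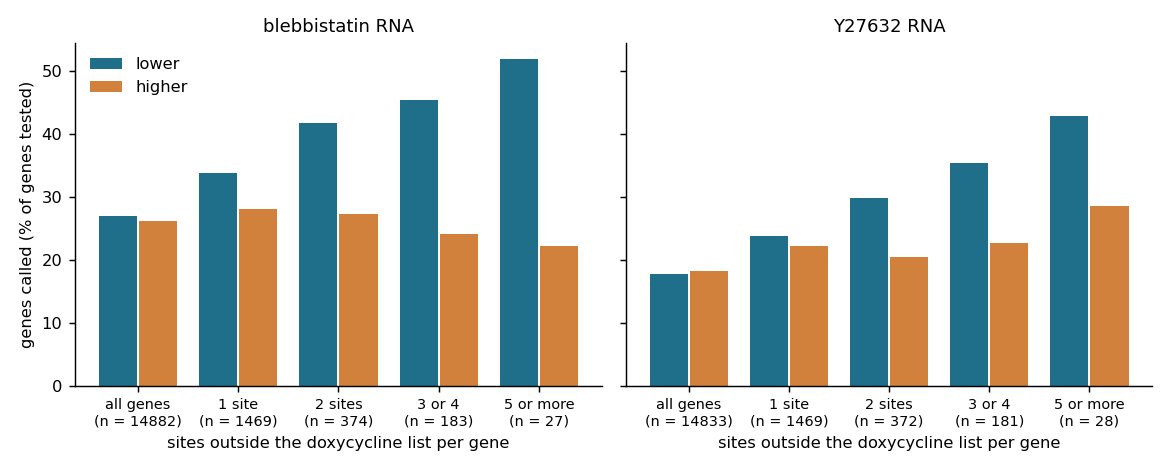
Percent of tested genes called lower (blue) and higher (orange) with blebbistatin (left) and Y27632 (right), for all genes and for genes by their number of sites outside the doxycycline list, with the number of genes under each pair of bars. The blue bars go from 26.9% for all genes to 51.9% for 5 or more sites on the left and from 17.8% to 42.9% on the right.

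Genes whose sites recurred in other lists had a larger share that fell. It was 48.8% of 162 genes with a site also in the list without doxycycline and 63.2% of 76 with a site also in the ATAC blebbistatin list, with 21.0% and 13.2% higher. Genes with a site in neither were at 34.8% and 28.5%. A further split was by the doxycycline list. Genes with a site outside it and another site inside it were at 41.1% lower and 26.5% higher, and those with no doxycycline site at 31.7% and 28.5%. Genes with a site at a fold of -1.5 or lower were at 41.8% and 17.6% (91 genes), and the rest at 36.2% and 28.0%.

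The largest RNA increases among genes annotated to these sites went against the direction of the site. Site values are from cells with doxycycline and RNA from cells without it, so they were not measured under the same condition. The Mmp10 site was in no list from cells without doxycycline. Mmp10 had its site at the start of the gene, 86 bp away, where the level fell from 5.66 to 4.29, and its RNA was 165, 140 and 194 normalised counts with DMSO and 2271, 2004 and 1909 with blebbistatin. The change was 3.63 (SE 0.103, limma adjusted p 5.31e-11), and the genes of this ranking were chosen with no overlap between groups. Tcim, a regulator of Wnt signalling, had its site 226219 bp from its start. Tcim RNA was at 26.8, 21.0 and 27.6 with DMSO and at 382, 320 and 306 with blebbistatin, a change of 3.69. The nearest sites of Rgs2, Hmgcll1 and Grem1 lay 2623, 8849 and 6553 bp from their starts. Rgs2, which speeds the shutdown of G protein signals, rose by 2.29, Hmgcll1, an enzyme that splits HMG-CoA, by 2.28 and Grem1, a BMP antagonist, by 2.18. With Y27632 Mmp10 changed by 2.11, Tcim by 1.18, Rgs2 by 0.36, Hmgcll1 by 1.26 and Grem1 by 1.45, all called higher.

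The 5 largest RNA decreases with blebbistatin among genes next to the sites were in Npr3, Cyp26b1, Gna14, Adra1d and F2rl1. Npr3, the clearance receptor for natriuretic peptides, went from 2175, 2237 and 2043 to 324, 421 and 324 normalised counts with blebbistatin, a change of -2.60 with a limma adjusted p of 2.21e-10. Cyp26b1, which breaks down retinoic acid, fell by 2.53. Gna14, a G protein subunit, Adra1d, an adrenergic receptor, and F2rl1, a receptor switched on by proteases, fell with log2 changes of -2.41, -2.41 and -2.30. The largest site fold of each of these 5 genes was between -1.21 and -1.05, and the nearest site lay 23346 to 136029 bp from the start. Adra1d and Npr3 also fell with Y27632, with log2 changes of -1.75 and -0.47, and the other 3 were not called.

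YAP/TAZ targets with a site were mostly lower in RNA. Of 26 genes of a list of such targets, 10 had 19 of the sites, all lower. Beside this and the other list counts below, 2053 of all 14882 genes tested had a site. With blebbistatin 7 of the 10 fell and 2 rose, with a median change of -0.77 against 0.0021 over all genes, of which 26.9% fell and 26.1% rose. The 16 targets without a site had 14 lower and 1 higher at a median of -0.70. Ccn2, a secreted matricellular protein, went from 3137, 3400 and 3823 to 934, 1238 and 1252 normalised counts, a change of -1.60 with a limma adjusted p of 4.52e-08, next to a site 14197 bp upstream with a fold of -1.39. Edn1, which encodes the vasoconstrictor peptide endothelin, Ankrd1, a nuclear ankyrin repeat protein, and Rbms3, an RNA-binding protein, fell with log2 changes of -2.29, -1.36 and -1.05. Lats2, a kinase that inactivates Yap, Igfbp3, which binds insulin-like growth factors, and Dlc1, a tumour suppressor with 4 sites, fell with -0.80, -0.74 and -0.72. Tgfb2 rose by 1.16 and Amotl1 by 0.18.

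Among the TEAD factors that bind Yap and Taz, only Tead1 had sites. Of 18 Hippo pathway genes 6 had a site, with 3 lower and 2 higher in RNA with blebbistatin, and of the 12 without a site 6 fell and 3 rose. The shares over all genes were 26.9% lower and 26.1% higher. Tead1 had 3 sites and went from 9084, 8983 and 7952 to 4158, 4003 and 4065 normalised counts, a change of -1.09 with a limma adjusted p of 1.65e-09. Vgll3, a TEAD cofactor with 4 sites at folds down to -1.19, and Frmd6, an upstream activator of the Lats kinases, fell with log2 changes of -1.46 and -0.66. Vgll4, a cofactor that represses TEAD, rose by 0.67 and Wwtr1, which encodes Taz, by 0.33. Yap1, Tead2, Tead3 and Tead4 had no site, and changed by 0.13, 0.43, -1.16 and -0.92. Frmd6 was called higher with Y27632, at 0.30.

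Contractile and adhesion genes with a site fell or were not called with blebbistatin, and those without a site also fell in most cases. Over all genes tested 26.9% fell and 26.1% rose. Of 4 actin and SRF genes with a site 3 fell, beside 14 of 18 without a site, and these 3 were Cnn2 (a calponin), Vcl (vinculin) and Actb, with log2 changes of -1.41, -1.03 and -0.78. The Cnn2 site lay 1598 bp upstream of its start and its level went from 7.84 to 6.74. Of 4 contractility genes with a site 3 fell and 0 rose, beside 11 lower and 2 higher of 15 without a site. Arhgap24, a Rac inactivator with 6 sites at folds down to -1.60, fell with log2 changes of -0.71 with blebbistatin and -0.72 with Y27632. Arhgap29 fell by 1.07 with blebbistatin. With blebbistatin 5 of 8 adhesion genes with a site fell and 0 rose, beside 9 lower and 5 higher of 16 without one. Their log2 changes were -1.11 for Nedd9, a docking protein, -0.76 for Tns3 (a tensin), -0.51 for Lpp, a LIM domain protein of focal adhesions, -0.26 for Ptk2 (focal adhesion kinase) and -0.21 for Itgb1 (the integrin beta1 chain). The Itgb1 site (chr8:128666567-128667247) was among the stronger ones, with levels of 8.27 and 6.96.

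Sites also lay next to genes of the matrix and of its turnover. Of 34 matrix structure genes 14 had 28 of the sites, and with blebbistatin 9 of the 14 fell and 1 rose, at a median of -0.32. Of these 14, 7 were called lower and 1 higher with each single library left out, the calls of Col1a2 and Fbn2 being lost. The 20 without a site had 8 lower and 6 higher at a median of 0.02, where 26.9% of all genes fell and 26.1% rose. Lox, which cross-links collagen, and Fbln5, an elastic fibre protein, fell with log2 changes of -0.57 and -0.52. Col5a2 and Col5a1, chains of the collagen that limits fibril width, fell with -0.48 and -0.30. The changes were -0.39 for Fbn1 (fibrillin), -0.35 for Vcan (versican) and -0.34 for Tnc (tenascin), and Col6a1 rose by 0.25. The largest folds were at Col5a1 (chr2:27810066-27810383) and Col5a2 (chr1:45599426-45599644), both -1.63, beside RNA changes under 0.5. Col3a1, the fibrillar collagen of young and healing tissue, had 3 sites, the nearest 2317 bp from its start, and an RNA change of 0.03 (limma adjusted p 0.551). Postn, a matricellular protein, had 2 sites, the nearest 628 bp away, and a change of -0.05 (limma adjusted p 0.553), which was 0.01 without DMSO replicate 2 and 0.03 without blebbistatin replicate 3.

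Of 33 matrix degradation genes 10 had 31 of the sites, and with blebbistatin 6 fell and 3 rose, where the 22 tested genes without a site had 3 lower and 15 higher. Among all genes 26.9% fell and 26.1% rose. Besides Adamts5 and Adamts6, Adamts1, another versican-cleaving protease, went from 11349, 12110 and 11732 to 3934, 3734 and 3931 normalised counts, a change of -1.60 with a limma adjusted p of 7.10e-12. Timp3 and Timp1, inhibitors of metalloproteinases, fell with log2 changes of -1.34 and -0.31, and Adamts12 fell by 0.33. Adam12, a membrane protease, rose by 1.86, Plau (urokinase) by 0.57 and Mmp10 as above. With single libraries left out, 5 of the 6 decreases and all 3 increases were called each time, the exception being Adamts6.

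Transcription factors with sites went both ways. Of 31 tendon and mesenchymal factors 16 had 30 of the sites, and of the 15 tested 4 fell and 8 rose with blebbistatin, 3 and 7 of them with each single library left out. Of the 15 factors without a site 4 fell and 7 rose, beside 26.9% and 26.1% of all genes. Klf4, a zinc finger factor, had a site that overlaps an ATAC site with the TEAD word tGGAATGctg. Its RNA went from 7448, 7349 and 7425 to 2941, 3187 and 3048 normalised counts, a change of -1.28 with a limma adjusted p of 4.73e-11. Nfib and Ebf1 fell with log2 changes of -0.91 and -0.44. Sox5 rose by 1.98, Tbx18 by 1.43, Egr2 by 1.02, Creb5 by 0.62, Zeb1 by 0.37, Nfia by 0.22 and Prrx1 by 0.20. With Y27632 Klf4 rose by 0.52, Ebf1 by 0.22 and Egr2 by 2.50. The other 2 called were Klf6 and Mkx. Sox6, with 3 sites, was not called at 0.09 (limma adjusted p 0.434) and Runx1, with 3, was not called at -0.04 (limma adjusted p 0.514). Of the 6 tested AP-1 genes without a site 1 fell and 2 rose with blebbistatin. Both with a site rose, Jun by 0.69 and Fos by 0.44 with blebbistatin, and by 1.19 and 1.70 with Y27632. With blebbistatin 1 of 5 TGF-beta genes with a site fell and 2 rose (1 and 1 with each single library left out), beside 7 lower and 1 higher of 11 without a site. Inhba, the activin A subunit, fell by 1.68, Tgfb2 rose as above, and the third was Tgfbr1.

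The genes with a site in these lists were also counted with Y27632, where 17.8% of all genes fell and 18.1% rose. Of the 10 YAP/TAZ targets with a site 4 fell and 2 rose, at a median of -0.07, with Edn1 at -1.56 and Ankrd1 at -0.57, while Ccn2 was not called at -0.11 (limma adjusted p 0.267). The 16 targets without a site had 11 lower and 3 higher at a median of -0.31. Of the 4 actin and SRF genes with a site 3 fell, Cnn2 at -1.01, Vcl at -0.55 and Actb at -0.46, beside 14 of 18 without a site. Matrix structure had 7 lower and 3 higher of 14 with a site (6 and 1 with each single library left out), and 3 and 6 of 20 without. Matrix degradation had 5 lower and 3 higher of 10 with a site, and 5 and 13 of 21 without. Contractility genes had 2 and 1 of 4 with a site (1 and 1 with each single library left out) and 6 and 1 of 15 without, and adhesion genes 2 and 1 of 8 with and 6 and 5 of 16 without. Hippo genes had 2 lower and 2 higher of 6 with a site and 5 and 3 of 12 without, and TGF-beta genes 0 and 2 of 5 with (0 and 1 with each single library left out) and 3 and 4 of 11 without. Among the transcription factors 2 of 15 with a site fell and 11 rose (1 and 11 with each single library left out), beside 3 and 6 of 15 without. Whether the changes with both drugs differ was not tested, and both use the same DMSO libraries.

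**Figure D5:**
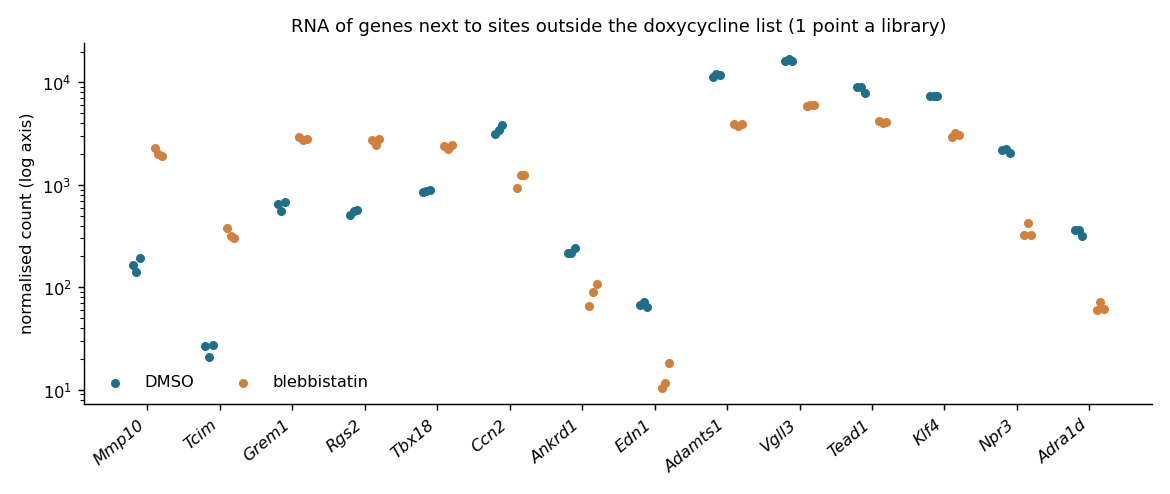
Normalised RNA counts on a log axis for 14 genes next to sites outside the doxycycline list, 1 point a library, DMSO in blue and blebbistatin in orange. The 5 genes on the left have every blebbistatin point above every DMSO point and the 9 on the right have every one below. Mmp10, Tcim, Grem1, Rgs2, Npr3 and Adra1d were chosen among genes whose groups do not overlap. Each gene's sites were lower with blebbistatin in cells with doxycycline, and the RNA is from cells without it.

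RNA depth was 23375386 to 37061737 reads in genes per library. All 12 markers of tendon fibroblasts had a mean of at least 10 normalised counts, and their sum was 815606 to 872759 with DMSO and 776074 to 847043 with blebbistatin. Of 4 epithelial and 4 muscle markers none reached 10, and Myod1 and Ckm were at 0 in all libraries of both tables. Immune markers, with 3 of 5 at 10 or more and Cd3e at 0, summed to 922 to 1081 with DMSO and 1351 to 1574 with blebbistatin. Endothelial markers (3 of 4) went from 3166 to 3230 down to 2005 to 2250, and cartilage markers (3 of 4) from 417 to 474 up to 635 to 713. In the Y27632 table the DMSO and treated sums were 957 to 1124 and 1369 to 1621 for immune, 3290 to 3353 and 2955 to 3153 for endothelial, and 433 to 492 and 645 to 736 for cartilage markers. Tendon markers there summed to 847575 to 907324 with DMSO and 891693 to 937065 with Y27632. The part of these shifts in the RNA results was not tested, and in bulk samples fewer cells of a type and less RNA per cell cannot be told apart.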

How the data were processed

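Site values are those the authors deposited, namely log2 group means, a log2 fold, a p-value and an FDR per site in DiffBind's column format, and HOMER's gene, class and distance, per the file headers. The GC fraction and the TEAD motif positions of the ATAC blebbistatin list are also the authors', per the file headers. The submitters' processing notes name mm10, HISAT2, featureCounts and DESeq2, and Bowtie2, SAMtools, Picard, MACS2, DiffBind and HOMER, without roles or versions. The scaling between libraries, the use of strand in counting, and whether peaks were called per library or pooled are not given in the sources used here. In the 3 lists of the doxycycline experiment every FDR is at or under 0.05 and every absolute log2 fold is 1 or more. How many sites each list was drawn from follows from FDR, rank and p-value under the Benjamini-Hochberg formula. One reference column of the doxycycline list carries another group's name, so its group means were not used.

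RNA tables hold a deposited signal per gene, which the values show to be read counts scaled by the authors with 1 factor for each library. At a tolerance of 0.01 reads 100% of the values above 0 came out as whole reads, and edgeR on these reads called 7924 genes with blebbistatin and 5354 with Y27632, against 7894 and 5328 here. Sample columns without a matching label numbered 0.

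Sites sharing at least 1 bp were counted as overlapping. Genes with a mean of at least 10 entered limma-trend (limma 3.58.1, R 4.3.3), 3 libraries against 3 with no block, as log2(normalised count + 1). All adjusted p-values are Benjamini-Hochberg values over all genes tested, and the alternatives used edgeR 4.0.16 (quasi-likelihood) and DESeq2 1.42.0. The fit was tested on simulated data. Sites named are the 2 largest decreases per annotation class at an FDR of at most 0.01, all that rose, the 5 strongest, the 3 at the fold threshold, the largest decrease per list gene and those in all lists. Genes named are the 10 with most sites, the 5 largest RNA changes each way among called genes with a mean of at least 100 and no overlap between groups, list genes, and Yap1, Wwtr1 and Tead1 to Tead4. The sites, lists and rules were chosen with earlier results of these data known. Promoter letters are from RefSeq, GRCm38.p6.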

Additional observations from a re-analysis of the deposited data

How the results depend on the processing

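The replicate block changed no count by over 1.5 times. Labels number the libraries alike across groups, and the deviations of same-numbered libraries correlated at -0.09 to 0.02. With 3 libraries a group, these values cannot show whether the numbers mark a shared culture, animal or batch. With the block limma called 7604 genes with blebbistatin and 4633 with Y27632, and next to the sites 722 and 482 lower and 547 and 400 higher. Leaving out 1 library at a time gave 6994 to 7394 and 4304 to 4839 genes called, 673 to 719 and 456 to 509 lower, and 509 to 536 and 367 to 412 higher. With an absolute fold of at least 1.5 the sites numbered 157. At an FDR of at most 0.01 in the other list, 36 sites overlapped the ATAC blebbistatin list and 6 the Y27632 list. Only genes with a site within 10 kb gave 160 lower and 125 higher with blebbistatin and 122 and 102 with Y27632. Only genes with no doxycycline-list site gave 322 and 290, and 227 and 205. These narrower settings hold fewer sites or genes by construction. DESeq2 called 6838 and 4268 genes. Postn, not called, ran from -0.11 to 0.026 with 1 library left out, with 0.01 without DMSO replicate 2 and 0.026 without blebbistatin replicate 3. Of the single genes with RNA values in the text, Adamts6 alone lost its call with the block or DESeq2, and those that did so without 1 library are named in the report. Motif shares over all sites, planned with 2 alternatives each, were not run because no genome was used here. Site depth is unknown.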
